A study of Homo sapiens with 6 samples.

Results

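Huh7 is an established human hepatocellular carcinoma cell line that is widely used as a stand-in for hepatocytes and as a host for hepatitis C virus. RNA-seq of Huh7 cells was deposited for 6 samples, of which 3 carry the label Control and the other 3 overexpressed HK1, the gene of hexokinase 1. The values here come from the 3 control libraries, taken by their sample titles, and ask which genes these cells express, at what level, and how far the libraries differ from each other. The control cells are described by the labels as Huh7 with the genotype Control. What they received in place of the HK1 construct, the culture conditions and the time of collection are not given in the sources used here. Total RNA was extracted with TRIZOL and made into libraries with a stranded mRNA kit. No label ties the 3 libraries to separate cultures, so the spread between them may be technical. Each is called control 1, 2 or 3 by the number in its title.

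Hepatocytes make most of the proteins of blood plasma, take up and secrete bile acids, oxidise drugs with cytochromes P450 and keep blood glucose steady. Their identity is held by a group of transcription factors that bind each other's genes, among them HNF4A, the FOXA proteins and CEBPA. AFP, the fetal relative of albumin, is silenced in the adult liver and is often made again by liver cancers. The letters GTTAAT are known as an element of the promoters of albumin and fibrinogen genes. Messages of ribosomal proteins share another start: a C at the cap followed by a run of pyrimidines (C or T), which lets the mTOR pathway set their translation.

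The 250 bases before the start of 3 of the most abundant hepatocyte genes are shown because they hold the GTTAAT letters, searched on both strands (GTTAAT or ATTAAC) and capitalised here. They come from RefSeq promoters on GRCh38.p14. The windows are chr4:73404037-73404286 (plus strand) for ALB, chr4:73435971-73436220 (plus strand) for AFP and chr4:154562730-154562979 (plus strand) for FGB. The letters begin 61 bases before the start of ALB and 132 bases before that of AFP, and 51 bases before that of FGB, where they lie on the other strand.
ALB: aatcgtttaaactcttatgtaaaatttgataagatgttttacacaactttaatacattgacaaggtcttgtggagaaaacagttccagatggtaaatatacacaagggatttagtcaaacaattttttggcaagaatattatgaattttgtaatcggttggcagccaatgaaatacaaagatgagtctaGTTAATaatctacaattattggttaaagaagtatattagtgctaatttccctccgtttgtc
AFP: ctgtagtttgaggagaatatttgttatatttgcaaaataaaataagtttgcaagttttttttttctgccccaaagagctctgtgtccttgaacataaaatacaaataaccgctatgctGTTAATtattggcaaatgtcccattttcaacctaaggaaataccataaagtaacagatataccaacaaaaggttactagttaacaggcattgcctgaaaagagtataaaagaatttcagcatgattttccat
FGB: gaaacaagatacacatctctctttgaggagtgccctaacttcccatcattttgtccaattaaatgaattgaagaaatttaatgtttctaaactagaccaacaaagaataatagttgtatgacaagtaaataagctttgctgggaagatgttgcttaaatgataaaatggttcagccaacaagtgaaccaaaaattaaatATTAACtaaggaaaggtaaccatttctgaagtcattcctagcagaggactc

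Among hepatocyte markers, 14 of 21 genes had an entry, with 20 windows between them, and 8 of the 20 (40%) held the letters. The genes were ALB, AFP, APOH, FGA, FGB, HNF4A and SERPINA1. The same letters stood in 7 of 24 windows (29.2%) of coagulation genes, in 4 of 15 (26.7%) of plasma carriers, in 2 of 17 (11.8%) of apolipoprotein and assembly genes and in 0 of 78 of ribosomal protein genes. These lists share genes with the hepatocyte markers: FGA and FGB stand in the coagulation list, ALB and AFP among the plasma carriers and APOH among the apolipoproteins. In all 35116 windows the share was 6.23%, and in the windows of genes expressed in the control libraries it was 3.97%. A match is a description of the letters and not a binding site.

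For ribosomal proteins, a window from 10 bases before the start to 20 after it is shown for 4 members, with the longest run of C or T in capitals. RPL8, the most abundant member, is not among them. The positions are chr6:132814559-132814588 (plus) for RPS12, chr9:124861938-124861967 (minus) for RPL35, chr9:19380217-19380246 (minus) for RPS6 and chr1:23691769-23691798 (plus) for RPL11.
RPS12: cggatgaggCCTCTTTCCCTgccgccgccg
RPL35: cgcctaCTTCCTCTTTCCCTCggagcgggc
RPS6: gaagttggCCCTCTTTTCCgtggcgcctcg
RPL11: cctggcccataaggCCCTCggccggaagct

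A run of 8 or more stood in 57 of 78 windows (73.1%) of ribosomal protein genes, against 12.7% of all windows and 7 of 74 (9.46%) of nuclear respiratory chain genes. It was 25% for hepatocyte markers, 23.3% for translation factors and 20% for plasma carriers. The run was 15 bases long in the window of RPL35 and 5 in that of RPL11, where it begins past the start. Each window shown is that of the gene's first entry. Whether the genes differ in this respect, or only the annotated starts, was not tested.

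The libraries held 16771835 to 20071846 counts, with a count for 28952 to 29642 gene names each. The 100 most abundant genes took 21.7% to 22.7% of counts. Levels are given as TPM, the count divided by the exon length in the deposited table and scaled to the same sum in each library. This compares genes per base of all exons annotated to their name. Where the expressed message is shorter than that length, TPM is understated, so an order of genes by TPM depends on the annotation. Between libraries TPM also moves with the make-up of each library: ALB was highest in control 1 by TPM, but had 4749.5, 4991 and 4840.3 CPM (counts scaled by library total and TMM factor) and was highest in control 2 by that scale. An order of libraries is therefore stated only where both scales give it. A count of 0 in a library allows up to 0.149 to 0.179 CPM (3 counts scaled as CPM), and this limit covers counting error only. Of 79172 gene names, 14380 (18.2%) reached 1 TPM in every control library, and these are called expressed. Their median was 12.7 TPM, 1330 had 100 TPM or more in every library and 86 had 1000 or more. Protein-coding genes were expressed in 11080 of 19394 cases (57.1%), with a median of 17.6 TPM, and took 86.5% of counts. Long noncoding RNAs were expressed in 604 of 5396 cases (11.2%), with a median of 2.69 TPM.

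**Figure D1:**
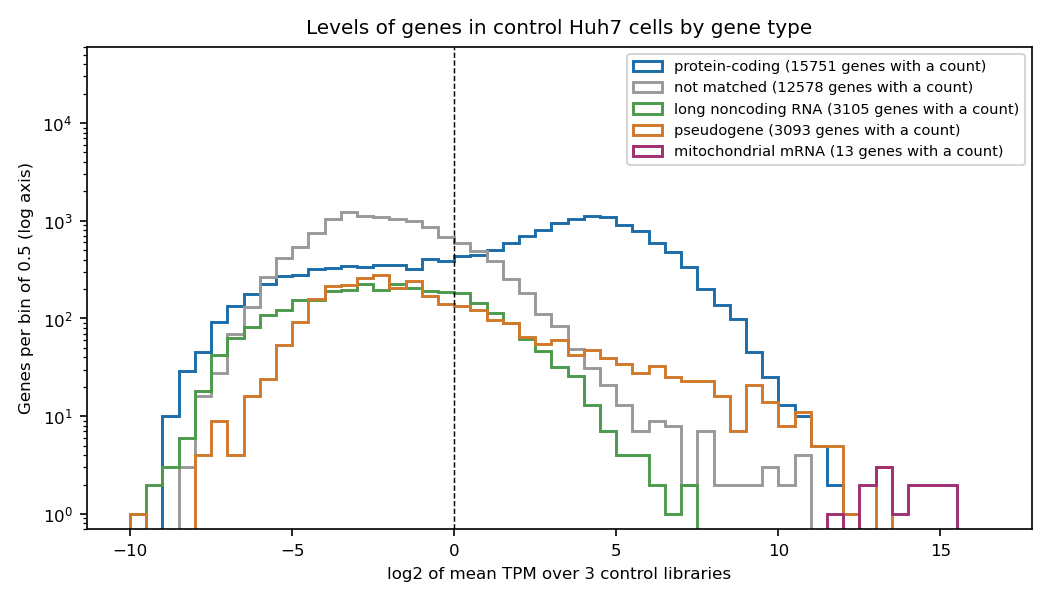
Number of genes (log axis) in bins of 0.5 by log2 of the mean TPM over the 3 control libraries, with a line for each gene type and genes without a count left out. The dashed line marks 1 TPM. Mitochondrial mRNAs lie at the right end, protein-coding genes form the large group above 1 TPM, and pseudogenes have a tail of high levels.

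Mitochondrially encoded transcripts headed the order of levels. MT-CO1, a catalytic subunit of cytochrome c oxidase, had 42802, 43554 and 42920 TPM in controls 1, 2 and 3 (43092 ± 404.5, SD, n = 3). MT-CO2, its partner subunit, had 36110.2 ± 919.5 TPM (SD, n = 3). The order of these 2 subunits held in each library. MT-CO3 followed at 28281 TPM, MT-ND4L at 24222, MT-ND4 at 22042 and MT-ATP6, a subunit of ATP synthase, at 21474.5. MT-ATP8, another ATP synthase subunit, was listed lowest of the 13 mitochondrial mRNAs at 3757 TPM. It overlaps MT-ATP6, which has 6.9% of its exon bases shared. Fragments over exons of both genes were left uncounted, and the part of this in the place of MT-ATP8 was not tested. Mitochondrial genes took 8.06%, 9.11% and 8.82% of counts in the 3 libraries (8.66% ± 0.542, SD, n = 3). Per exon length they made up 27.5% of TPM.

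Apart from mitochondrial mRNAs, the 20 highest names were processed pseudogenes, mitochondrial ribosomal and transfer RNAs, and ALB. EEF1A1P5, a copy of the elongation factor gene EEF1A1, had 11229.5 ± 697.7 TPM (SD, n = 3). RPL41P1 was listed at 10101 TPM over an exon length of 81 bases, PPIAP22 at 8851 TPM and RPL39P3 at 4098 TPM. The fragments assigned to such a copy and to its parent gene cannot be told apart with certainty, and this is taken up below. MT-RNR2 and MT-RNR1, the mitochondrial ribosomal RNAs, had 18414 and 6419.5 TPM.

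ALB, the carrier protein albumin (chr4:73397114-73421482, GENCODE 47 on hg38), was the highest nuclear protein-coding gene by TPM, at 4436, 4284 and 4251 (4324 ± 98.3, SD, n = 3). ACTB, cytoplasmic actin, came next with 4164, 3944 and 3943 TPM (4017 ± 127, SD, n = 3). By mean CPM, which takes no account of length, ALB had 4860, below ACTB at 5857 and FN1 at 8455. GAPDH, the glycolytic dehydrogenase, had 2809.5, 2989 and 2819.6 TPM (2873 ± 101, SD, n = 3), with control 2 above the other libraries. AMBP, the precursor of alpha-1-microglobulin and bikunin (chr9:114060127-114078328), stood at 2748, 2922 and 2749 TPM (2806 ± 99.9, SD, n = 3). GAPDH was above AMBP in each library, but their levels overlapped between libraries. Some of the names that follow were picked after their values were seen. TMSB10, an actin monomer binder, stood between ACTB and GAPDH at 3083.5 TPM. TUBB4B, a beta tubulin, had 2247, PRDX1, a peroxiredoxin, 2050.3, TXN, thioredoxin, 1696, 2263 and 2136, and NQO1, a quinone reductase, 1379 TPM.

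Hepatocyte markers were expressed in 21 of 21 cases, with a median of 305 TPM, against 57.1% of protein-coding genes expressed and a median of 17.6 TPM among those expressed. AFP (chr4:73431138-73456174) had 1813, 1735 and 1735 TPM (1761 ± 45.3, SD, n = 3). ALB was thus above AFP in each library. RBP4, the plasma carrier of retinol, had 1105 ± 25.3 TPM (SD, n = 3). FGB, the beta chain of fibrinogen (chr4:154563011-154572807), had 1028.5, 1024 and 1008 TPM (1020.4 ± 10.7, SD, n = 3). Its partner chains were lower, with FGA at 516 ± 12.2 and FGG at 398 ± 5.14 TPM (SD, n = 3), and the levels of the 3 chains did not overlap.

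KRT18 and KRT8, the paired keratins of simple epithelia and hepatocytes, had 854 ± 32.1 and 694 ± 24.5 TPM (SD, n = 3). APOB, the structural protein of very low density lipoprotein (chr2:21001429-21044073), had 479.9, 305 and 364 TPM (383 ± 89.2, SD, n = 3). Control 1 was the highest and control 2 the lowest for APOB, and it varied more than any other hepatocyte marker. The exon length of APOB includes 1 alternate sequence, and with the primary chromosome's length alone its mean was 757 TPM. AHSG, fetuin A, had 305 TPM, VTN, vitronectin, 199.5, TTR, the thyroxine carrier, 189 and TF, transferrin, 130.4 TPM. The exon length of TF is 26038 bases. By mean CPM it stood above AHSG, VTN and TTR, at 1124.6 against 224.1, 125.7 and 136.6.

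The lower end of the list mixed secreted proteins, receptors and regulators. APOA1, the main protein of high density lipoprotein, had 123 ± 0.454 TPM (SD, n = 3), the least spread of the list relative to its mean by TPM, though its log2 CPM had a range of 0.13. SERPINA1, alpha-1 antitrypsin, had 76.4, 87.9 and 96.0 TPM (86.8 ± 9.83, SD, n = 3), lowest in control 1, where APOB was highest. With the primary length alone it had 159 TPM. HNF4A (chr20:44355699-44432845) had 49.2, 42.8 and 44.6 TPM (45.5 ± 3.31, SD, n = 3). ASGR1, a subunit of the asialoglycoprotein receptor, was the lowest marker at 16.6, 17.4 and 16.6 TPM (16.9 ± 0.451, SD, n = 3), while its partner ASGR2 had 68.6 TPM.

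**Figure D2:**
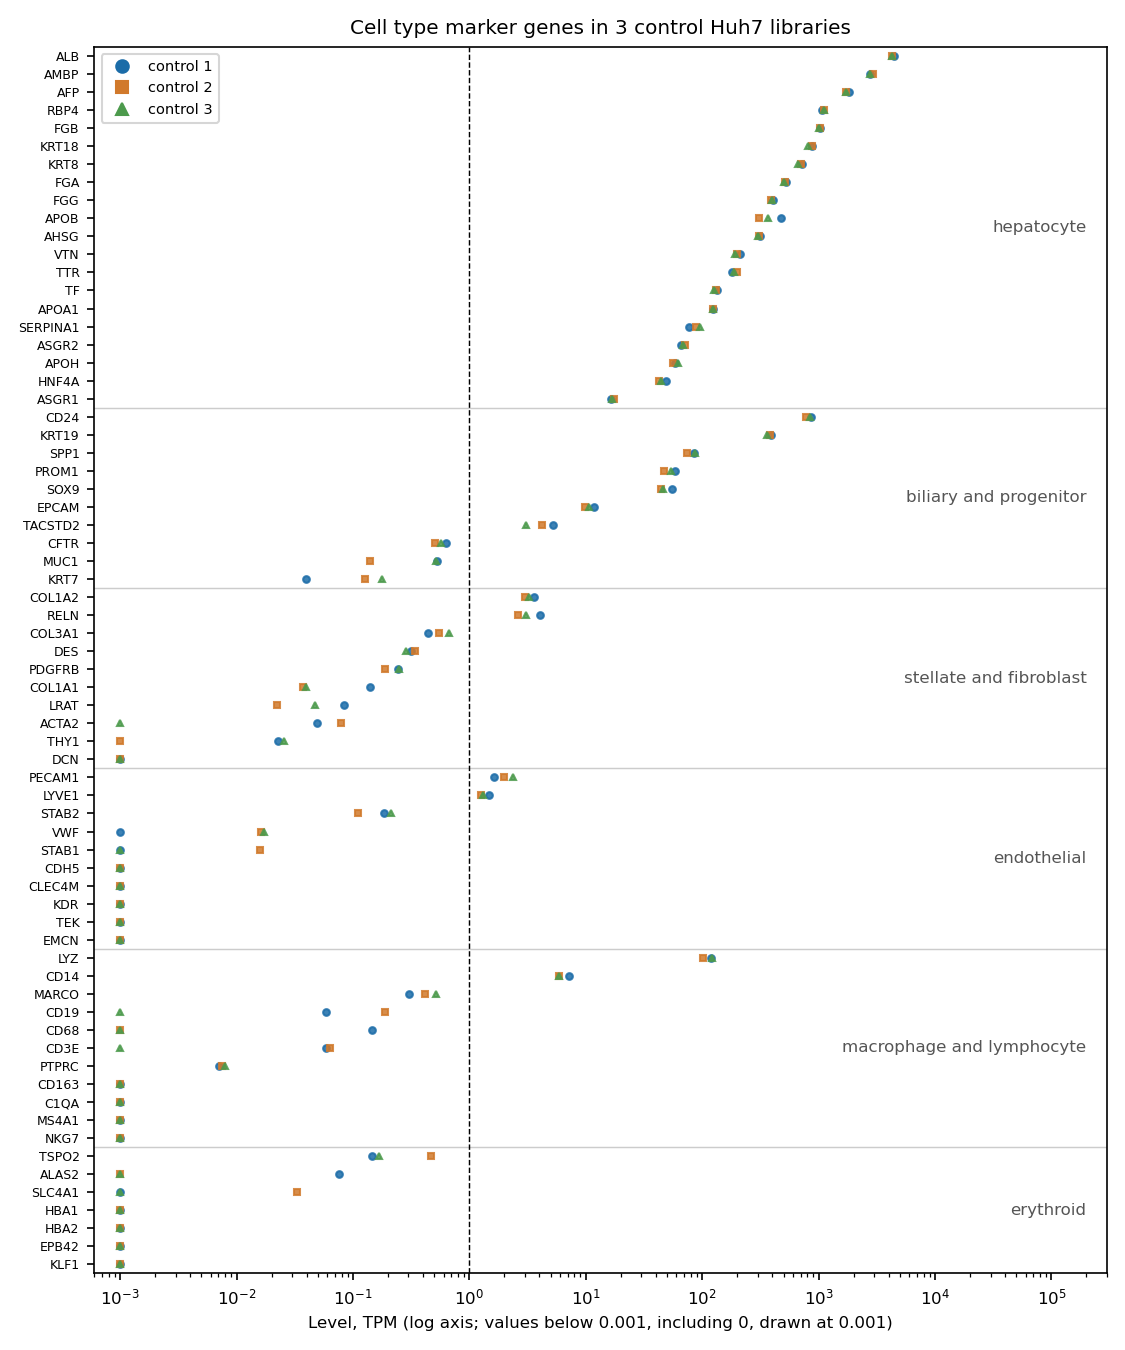
Level of cell type markers in each of the 3 control libraries (1 symbol a library), in TPM on a log axis, with values below 0.001, including 0, drawn at 0.001 and a dashed line at 1 TPM. The hepatocyte markers drawn lie above the dashed line in each library, and the erythroid markers drawn lie below it.

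Markers of biliary and progenitor cells were expressed in 7 of 10 cases. CD24, a surface glycoprotein of progenitors and many carcinomas, had 829.7 ± 51.0 TPM (SD, n = 3). KRT19, a keratin of bile duct cells, had 388, 381 and 360.3 TPM (377 ± 14.6, SD, n = 3). Its usual duct partner KRT7 was near 0, with 1, 3 and 4 counts, or 0.115 TPM. SPP1, osteopontin, stood at 81.6 TPM, PROM1 at 53.3, SOX9, a duct transcription factor, at 48.6 and EPCAM at 10.8. CFTR, the chloride channel of ducts, had 0.570 TPM and MUC1 0.394.

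Markers of other liver cells were largely at or near 0. Stellate and fibroblast markers were expressed in 2 of 10 cases, the highest being COL1A2, a collagen I chain, at 3.29 ± 0.312 TPM (SD, n = 3) and RELN at 3.25. COL1A1 had 0.0722 TPM, ACTA2 2, 3 and 0 counts, and DCN, decorin, was listed at 0. Endothelial markers were expressed in 2 of 10 cases, PECAM1 at 1.62, 1.97 and 2.35 TPM and LYVE1 at 1.35. CDH5, KDR, TEK, CLEC4M and EMCN were listed at 0 in the 3 libraries. Of the macrophage and lymphocyte markers, 2 of 11 were expressed. LYZ, lysozyme, stood apart at 118, 102 and 121 TPM (114 ± 10.3, SD, n = 3), with 34.7% of its exon bases shared with another gene name. CD14, which hepatocytes also secrete, had 6.28 ± 0.747 TPM (SD, n = 3), while CD163, C1QA, MS4A1 and NKG7 were listed at 0. Erythroid markers were expressed in 0 of 8 cases, and HBA1, HBA2, EPB42 and KLF1 were listed at 0. Exon bases are shared over 57.0% of HBA1 and 42.7% of HBA2, so those zeros may also come from fragments that were not assigned, which was not tested.

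The transcription factors of hepatocytes were expressed in 22 of 25 cases, with a median of 20.6 TPM. CEBPA led them with 107, 91.1 and 83.8 TPM (94.0 ± 12.1, SD, n = 3). FOXA2, a pioneer factor of endoderm, had 89.7, 78.8 and 79.0 TPM (82.5 ± 6.27, SD, n = 3). PROX1, needed for hepatoblast growth, had 71.9, 40.1 and 58.0 TPM (56.6 ± 15.9, SD, n = 3), and HHEX had 60.7, 50.01 and 56.6. Control 1 had the highest value of each of these 4 genes. NR1H4, the bile acid receptor, stood at 40.2 TPM, RXRA, the shared partner of nuclear receptors, at 37.5, FOXA1 at 36.7 and GATA4 at 31.2, or 61.6 with its primary length alone. PPARA, which drives fat burning in fasting, had 4.33 TPM. The drug sensors NR1I3 (0.915 TPM) and NR1I2 (0.106) were among the 3 that did not reach 1 TPM in every library.

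Oncofetal liver genes were expressed in 11 of 14 cases. Beside AFP, PEG10, a retrotransposon-derived gene active in placenta, had 645, 448 and 568 TPM (554 ± 99.4, SD, n = 3). GPC3, a proteoglycan of fetal liver and liver cancer, had 472, 460.3 and 462.5 TPM (465 ± 6.14, SD, n = 3). LIN28B, which blocks let-7 maturation, had 134, 92.0 and 121 TPM, and IGF2BP1, a fetal mRNA binder, had 81.0. PEG10 and LIN28B were lowest in control 2, whereas the log2 CPM of GPC3 had a range of 0.086. TERT, the telomerase catalytic subunit, had 3.91 TPM and SALL4 1.21. IGF2 had 8.37 TPM with 44.4% of its exon bases shared. H19, DLK1 and MEG3, imprinted genes of the fetal liver, were listed at 0.

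Plasma carriers were expressed in 14 of 16 cases with a median of 116 TPM. ORM1 and ORM2, the orosomucoids, had 204 and 101 TPM. SERPINA6, the carrier of cortisol, had 19, 2 and 105 counts in controls 1, 2 and 3. It varied widely for a gene of this list, and its exon length includes 1 alternate sequence, whose part in that spread was not tested. Apolipoproteins and lipoprotein assembly genes were expressed in 13 of 20 cases. APOE, the ligand of lipoprotein receptors, had 1287, 1227 and 1099.9 TPM (1205 ± 95.5, SD, n = 3). APOA2 had 398, 465 and 441 TPM (435 ± 34.1, SD, n = 3), CLU 331 and APOC1 316. MTTP, which loads lipid onto APOB, had 97.3 TPM. APOA4 had 0.656 TPM, and APOF was listed at 0.

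Coagulation and fibrinolysis genes were expressed in 18 of 23 cases. PROS1, protein S, had 145 TPM and SERPIND1, heparin cofactor, 110.2. F2, prothrombin, had 110.2, 107 and 102 TPM (106 ± 4.31, SD, n = 3), while F10 had 46.97, F5 46.9, SERPINC1, antithrombin, 35.1 and F7 12.2 TPM. F9, whose exons are shared with no other gene name, and PLG, plasminogen, with 6.27% shared, were listed at 0. F8, made mainly by endothelium in the body, had 0.360 TPM.

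Complement genes were expressed in 17 of 25 cases. C3, the central component, had 181, 174 and 162 TPM (172 ± 9.66, SD, n = 3), C5 33.7 and SERPING1, the C1 inhibitor, 31.2. C4A, C4B, C2 and CFB lie in a region with 3 to 6 alternate sequences and were near 0. Acute phase proteins were expressed in 5 of 15 cases, the lowest share among the lists of secreted proteins. FGL1 had 50.2 TPM and HP, haptoglobin, 2.12, whereas SAA1 had 0.475 and HAMP, hepcidin, 0.396. CRP, with no shared exon bases, and SERPINA3, with 43.4% shared, were listed at 0.

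Cytochromes P450 were expressed in 17 of 33 cases. CYP1A1, the target of the aryl hydrocarbon receptor, led with 165.5, 159.5 and 154 TPM (159.6 ± 5.85, SD, n = 3). CYP27A1, of bile acid synthesis, had 45.2, 41.7 and 40.1 TPM, and CYP51A1, of cholesterol synthesis, had 31.1 ± 7.67 (SD, n = 3) with 74.1% of exon bases shared. The drug-metabolising enzymes of adult liver were low. CYP3A4 had 2, 0 and 3 counts (0.0852 TPM), CYP2E1 0.128 TPM, and CYP1A2 0.110 TPM, while CYP3A5 had 8.80. CYP2D6 had 0.0292 TPM, with 5 alternate sequences in its length. CYP7A1, the rate-limiting enzyme of bile acid synthesis, was listed at 0 in the 3 libraries.

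Urea cycle and amino acid catabolism genes were expressed in 17 of 25 cases. HGD, of tyrosine breakdown, had 258, 250.1 and 247 TPM (251.5 ± 5.66, SD, n = 3), GOT2 166, GOT1 141, SLC25A13 127 and GLUL, glutamine synthetase, 117. Within the urea cycle itself the levels were uneven. ASL had 43.7 TPM and ASS1 31.0, but ARG1, the liver arginase, had 2.04, NAGS 2.15, CPS1, the entry enzyme, 0.879 ± 0.137 (SD, n = 3), and OTC 2, 1 and 1 counts (0.0599 TPM). ARG2, the arginase of other tissues, had 23.8 TPM. Among bile acid and organic anion transporters, 13 of 21 were expressed. ABCC2, the canalicular exporter of conjugates, had 198, 174 and 181 TPM (184 ± 12.6, SD, n = 3), SLC22A9 51.7, ABCC3 37.9 and ABCB1, the multidrug transporter, 31.9. The uptake carrier SLC10A1, also the receptor of hepatitis B virus, had 1, 3 and 1 counts (0.140 TPM), ABCB11, the bile salt pump, 0.355 TPM and SLCO1B3 0.0159.

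Receptors for viruses were expressed in 12 of 17 cases. CLDN1, a coreceptor of hepatitis C virus, had 481, 410.5 and 461 TPM (451 ± 36.3, SD, n = 3), EPHA2 220.1, TFRC 182, SCARB1 69.2 and CD81 37.3. OCLN, the other tight junction coreceptor of that virus, had 0.618 TPM with 1 alternate sequence in its length. TMPRSS2 was listed at 0. Innate sensing genes were expressed in 13 of 23 cases. MAVS, the adaptor of the RNA sensors, had 64.4 ± 3.85 TPM (SD, n = 3), JAK1 46.98 and IRF3 41.1. The sensors stood lower, with IFIH1 at 5.75 TPM, TLR3 at 0.404, RIGI at 0.154 (42.6% of exon bases shared) and CGAS at 0, 3 and 3 counts. IFNB1, IFNL1 and IRF7 were listed at 0, and the last 2 have 1 alternate sequence each.

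Hexokinase and glycolysis genes were expressed in 19 of 29 cases. Of the enzymes that phosphorylate glucose, HK2 (chr2:74834127-74893359), the form of muscle and tumours, had 51.0, 39.8 and 44.4 TPM (45.1 ± 5.63, SD, n = 3). HKDC1 came next with 13.4, 10.99 and 11.4 TPM. HK1 (chr10:69269984-69401884) had 13, 15 and 13 counts, or 0.297, 0.369 and 0.337 TPM (0.334 ± 0.0364, SD, n = 3). HK3, the form of white blood cells, was listed at 0. The levels of HK2, HKDC1 and HK1 did not overlap over the 3 libraries. Further down the pathway ENO1, enolase, had 1833 ± 53.4 TPM (SD, n = 3), PKM, pyruvate kinase, had 837, 840 and 773 TPM (817 ± 37.8, SD, n = 3), TPI1 had 365 TPM and LDHA 279, or 552 with its primary length. PKLR, the pyruvate kinase of liver and red cells, was listed at 0 with 1 alternate sequence, and SLC2A2, the liver glucose transporter, had 0.516 TPM against 40.6 for SLC2A1. ALDOA had 33.5 TPM with 54.2% of its exon bases shared, and LDHB 0.388 with 33.4% shared.

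Gluconeogenesis and glycogen genes were expressed in 12 of 19 cases. PYGB, the brain form of glycogen phosphorylase, had 242, 228.5 and 206 TPM (225.5 ± 18.5, SD, n = 3), above PYGL, the liver form, at 91.9. PC, pyruvate carboxylase, had 92.0 ± 9.14 TPM (SD, n = 3) and PCK2, the mitochondrial carboxykinase, 10.7. PCK1, the cytosolic carboxykinase, has no shared exon bases and was listed at 0. G6PC1, which releases free glucose, had 2, 0 and 0 counts, and FBP1 had 0.740 TPM with 34.1% of exon bases shared.

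Cholesterol synthesis genes were expressed in 24 of 24 cases, with a median of 114 TPM, and 12 of them had 100 TPM or more in every library. HMGCS1 had 804.5, 598 and 699 TPM (700.5 ± 103.5, SD, n = 3), with control 2 the lowest. EBP, a sterol isomerase, had 519 TPM and DHCR7, a sterol reductase, 503. SQLE, squalene epoxidase, had 166, 129 and 151 TPM. LSS, lanosterol synthase, was the lowest at 9.96 TPM, or 18.3 with its primary length. Fatty acid oxidation and ketogenesis genes were expressed in 22 of 26 cases with a median of 20.6 TPM. ECHS1 had 378 ± 7.17 TPM (SD, n = 3), HADHA 133, ACSL3 123 and ACADVL 102.5. CPT1A, the entry step into mitochondria, had 56.0 ± 3.53 (SD, n = 3) and FABP1, a fatty acid carrier, 54.0.

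DNA replication and mitosis genes were expressed in 37 of 38 cases with a median of 98.3 TPM. PCNA, the sliding clamp, had 613, 599 and 618 TPM (610.0 ± 9.91, SD, n = 3). MCM7, of the replicative helicase, had 392, 390.1 and 372 (385 ± 11.2, SD, n = 3), TPX2, a spindle factor, 348 and MCM3 322. MKI67, the Ki-67 antigen, had 122 ± 10.5 TPM (SD, n = 3) and CCND1, cyclin D1, 119. CCND2 was listed at 0, with 16.0% of exon bases shared. CDKN1A, the p21 inhibitor, had 41.0 TPM and CDKN2A 20 TPM.

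Cytosolic ribosomal protein genes were expressed in 78 of 79 cases with a median of 212 TPM, although for 25 members pseudogenes took more counts than the gene itself. RPS12 had 1421, 1714 and 1555 TPM (1563.5 ± 146.8, SD, n = 3). RPL35 had 1129.8, 1421 and 1306 TPM (1285.5 ± 146.7, SD, n = 3). RPS6, the substrate of S6 kinase, had 1180.1, 1322 and 1257 TPM (1253 ± 71.2, SD, n = 3) and RPL8 1831. In RPS12, RPL35 and RPS6 control 1 was the lowest and control 2 the highest. Nuclear respiratory chain subunits were expressed in 73 of 76 cases with a median of 93.6 TPM. ATP5F1B, the catalytic beta subunit of ATP synthase, had 1811, 1812 and 1814.5 TPM (1812 ± 1.95, SD, n = 3), close to level by TPM, and its log2 CPM had a range of 0.12. NDUFS5, of complex I, had 949.8, 1045 and 1017 TPM (1004 ± 49.0, SD, n = 3), COX8A had 572 and CYC1 353.

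Genes of protein synthesis, folding and breakdown are set here beside the 57.1% of protein-coding genes expressed. Proteasome subunits were expressed in 29 of 31 cases, led by PSMB7 at 856.5 TPM and PSMA7 at 779. Translation factors were expressed in 26 of 28 cases, led by EEF2 at 1687 and EEF1A1 at 725.5 TPM. EEF1G was listed at 0 with 99.7% of its exon bases shared. ER chaperones and unfolded protein response genes were expressed in 20 of 20 cases, with CALR, a lectin chaperone, at 1390.1 ± 16.6 (SD, n = 3), HSPA5, the BiP chaperone, at 719.5, PDIA4 at 457 and HSP90B1 at 275 TPM. Heat shock chaperones were expressed in 13 of 16 cases. HSP90AB1 had 1911 ± 50.3 TPM (SD, n = 3), HSPA8 1630.0, HSP90AA1 1304 and HSPD1 567, while the inducible HSPA1A had 0.0275 with 4 alternate sequences.

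Stress and signal targets differed in level between lists. Of the targets of the integrated stress response, 21 of 23 were expressed: PSAT1, of serine synthesis, had 458 ± 43.7 TPM (SD, n = 3), GDF15 396 ± 13.3 and ATF4 275 ± 10.9, and FGF21 was listed at 0. Immediate early genes were expressed in 20 of 24 cases, with CCN2 at 238 TPM, DUSP1 at 207 and CCN1 at 165, but FOS at 1.85 and EGR1 at 1.46. Hypoxia targets were expressed in 21 of 24 cases, with HIF1A at 473, 332 and 429 TPM (412 ± 72.1, SD, n = 3), EPAS1 at 140.5 and CA9 at 0.105. HIF1A was lowest in control 2.

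Matrix, integrin and EMT genes were expressed in 26 of 33 cases. FN1, fibronectin (chr2:215360440-215436073), had 1676, 1351 and 1435 TPM (1487 ± 169, SD, n = 3), with control 1 the highest. VIM, vimentin, a mesenchymal filament, had 375, 372 and 374 TPM (374 ± 1.58, SD, n = 3), and its log2 CPM had a range of 0.11. CDH2, N-cadherin, had 68.5, 54.3 and 62.4 TPM and CDH1, E-cadherin, had 22.1, 19.98 and 17.5, and the levels of the pair did not overlap. TWIST1 and SNAI2 were listed at 0 and ZEB1 had 9.93 TPM. Iron and metallothionein genes were expressed in 19 of 21 cases: FTL, the ferritin light chain, had 2104, 2408 and 2251 TPM (2254 ± 152, SD, n = 3), MT2A 466 ± 28.4 and FTH1 308, the last with 79.3% of exon bases shared. MHC genes were expressed in 2 of 20 cases, B2M at 4.25 ± 0.392 TPM (SD, n = 3), or 12.4 with its primary length, and NLRC5 at 1.85. In this list 17 of 20 genes have alternate sequences.

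Histone genes of the replication-dependent type, whose messages lack a poly(A) tail, were expressed in 21 of 46 cases. H2BC12 had 481 TPM, H1-2 148 and H2AC6 118. Nuclear and abundant long noncoding RNAs were expressed in 16 of 28 cases. RN7SL1, the RNA of the signal recognition particle, had 220.4, 252 and 188 TPM (220.3 ± 31.8, SD, n = 3), NORAD 157 ± 15.6 and SNHG29 141. NEAT1, the scaffold of paraspeckles, had 29.8, 37.0 and 39.5 TPM, lowest in control 1. MALAT1 was counted at 1, 1 and 2, with 92.2% of its exon bases shared, and RMRP, RPPH1, RN7SL2 and RN7SK were listed at 0 with 100% shared.

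How fragments were assigned sets limits on these levels, since fragments over exons of more than 1 gene name, or mapping to several places, were left uncounted by the options recorded in the file header. Among protein-coding genes without alternate sequences, 5 of 196 (2.55%) with 90% or more of their exon bases shared were expressed, against 4136 of 8014 (51.6%) with none shared. Genes with alternate sequences were expressed in 399 of 1449 cases (27.5%), against 10681 of 17925 (59.6%) without. Low values of MALAT1, EEF1G, C4A or HSPA1A are therefore no measure of low expression. Pseudogenes took 3.28% of counts and 14.5% of TPM. In 64 of 392 families with 1 CPM or more in pseudogenes, the pseudogenes held 10 CPM or more and exceeded their parent, and 25 of these parents were ribosomal protein genes. EEF1A1P5 held 5158 CPM against 2415.5 for EEF1A1, PPIAP22 1462 against 615 for PPIA, and NPM1P27 912 against 623 for NPM1. For RPL7, 97.1% of the family's counts were in pseudogenes, and for RPS3A 94.0%. TPM of these parents may therefore be understated, and where the fragments came from was not tested.

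The 3 libraries were close but not equal. Ratios between libraries use CPM scaled with TMM factors, with 0.5 counts added, for 9386 genes with a mean of 10 CPM or more. With 1 library on each side there is no test, and a gene is called different when the ratio passes 1.5-fold. Between controls 1 and 2, 132 genes (1.41%) passed it, 113 of them (1.2%) higher in control 1 and 19 (0.202%) higher in control 2. Between controls 2 and 3, 44 genes (0.469%) passed, 13 (0.139%) higher in control 2 and 31 (0.33%) higher in control 3. Between controls 1 and 3, 21 (0.224%) passed, 9 (0.0959%) higher in control 1 and 12 (0.128%) higher in control 3. The SD of the log2 ratio was 0.22, 0.17 and 0.15 in that order, and Pearson's r of log2 CPM across genes, which are not independent replicates, was 0.988, 0.993 and 0.995. Control 2 was the library farthest from the other two in 2238 of 4252 genes (52.6%) that differed beyond sampling noise and had a mean of 10 CPM or more, control 1 in 35.0% and control 3 in 12.3%.

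Counts differed by more than Poisson sampling in 4745 of 16141 genes (29.4%; Pearson chi-square per gene with Benjamini-Hochberg adjustment at 0.05). That test compares these 3 libraries and not conditions. Chi-square per degree of freedom was 10.2 between controls 1 and 2, 4.73 between 1 and 3 and 4.65 between 2 and 3, so each pair differed by more than sampling noise and the 3 were kept as separate libraries. The common biological coefficient of variation, the replicate spread left after sampling noise, was 8.21% by edgeR over 14346 genes with a mean of 1 CPM or more. A second edgeR estimate, fitted as a trend on level, had a median of 15.02% for the genes under 2 CPM. Its median was 8.50% at 10 to 50 CPM and 7.18% at 500 CPM or more.

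**Figure D3:**
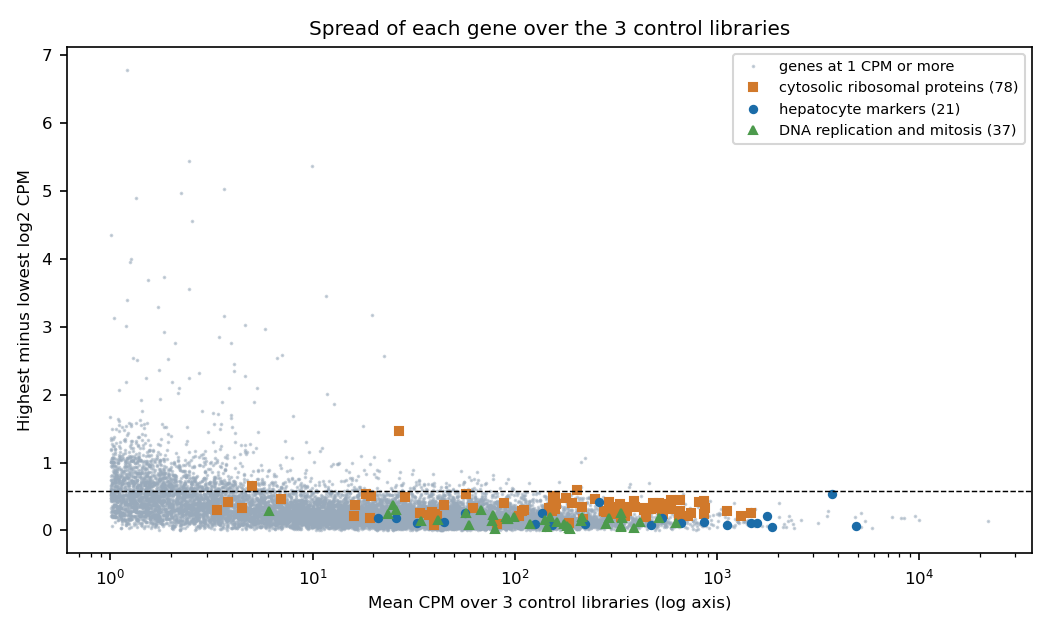
Highest minus lowest log2 CPM of each gene over the 3 control libraries, against its mean CPM on a log axis, for genes with 1 CPM or more, with 1 point a gene, larger symbols for ribosomal protein, hepatocyte marker and DNA replication genes and the dashed line at 1.5-fold. At 10 CPM or more, 150 of 9386 genes (1.6%) passed 1.5-fold in at least 1 pair.

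Ribosomal protein genes differed together between libraries. Their mean log2 CPM was 7.13, 7.45 and 7.34 in controls 1, 2 and 3 (members with 1 CPM or more), a range of 0.31. Of 73 members with 10 CPM or more, 2 were higher in control 1 than in control 2, with a median log2 difference of -0.32, and 1 was higher in control 1 than in control 3, with a median of -0.22. Over all 9386 genes the median was -0.0013 between controls 1 and 2, with 49.8% higher in control 1. RPL35 had 547, 748.5 and 672 CPM and RPS12 had 286, 376 and 333 CPM. The shift between controls 1 and 2 was small in each gene. RPL36 (log2 -0.60), picked after its value was seen, was the 1 member of 73 past 1.5-fold there, beside 1.41% of all genes. RPS9, with 9 alternate sequences, was instead highest in control 1, at 37.5, 29.6 and 13.5 CPM. It was the 1 member past 1.5-fold between controls 1 and 3 and between controls 2 and 3, beside 0.224% and 0.469% of all genes.

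Respiratory chain subunits of the nucleus showed the same order, with a mean log2 CPM of 6.05, 6.33 and 6.26 and a range of 0.27. Of 70 members, 1 was higher in control 1 than in control 2 (median log2 -0.29) and 4 higher in control 1 than in control 3 (median -0.23). NDUFB5, chosen after its value was seen, was the 1 member past 1.5-fold between controls 1 and 2, at log2 -0.61, which is 1 of 70 beside 1.41% of all genes. All 13 mitochondrial mRNAs were also lower in control 1 than in control 2 (median log2 -0.20) and in control 3 (median -0.17). Of 27 proteasome subunits, 0 were higher in control 1 than in control 2 (median -0.12). Members of a list share the library's scale, so their common sign is a description of these libraries.

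Hepatocyte transcription factors stood higher in control 1, and hypoxia targets lower in control 2. The transcription factors were higher in control 1 than in control 2 in 18 of 20 cases (median log2 0.16) and than in control 3 in 19 of 20 (median 0.13). PROX1 had 202, 122 and 173 CPM, a log2 difference of 0.72 between controls 1 and 2, and ONECUT1, chosen after its value was seen, had 0.69, so that 2 of 20 passed 1.5-fold beside 1.41% of all genes. Hypoxia targets were higher in control 1 than in control 2 in 18 of 20 cases (median 0.14, or 0.076 with the GC trend removed) and than in control 3 in 14 of 20 (median 0.037). Between controls 2 and 3, 4 of 20 were higher in control 2 (median -0.11, or -0.0525 with the GC trend removed). HIF1A had 769, 587 and 742 CPM. EGLN1, an oxygen sensor, was past 1.5-fold at 25.2, 11.8 and 15.2 CPM, with 55.8% of its exon bases shared. ITGAV, an integrin chain named after its value was seen, had 548, 339 and 501.5 CPM. Hepatocyte markers were higher in control 1 than in control 2 in 3 of 21 cases (median -0.10). That median was -0.102 with the GC trend removed and -0.0238 with the exon length trend removed. Past 1.5-fold were 0 of 21, beside 1.41% of all genes.

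**Figure D4:**
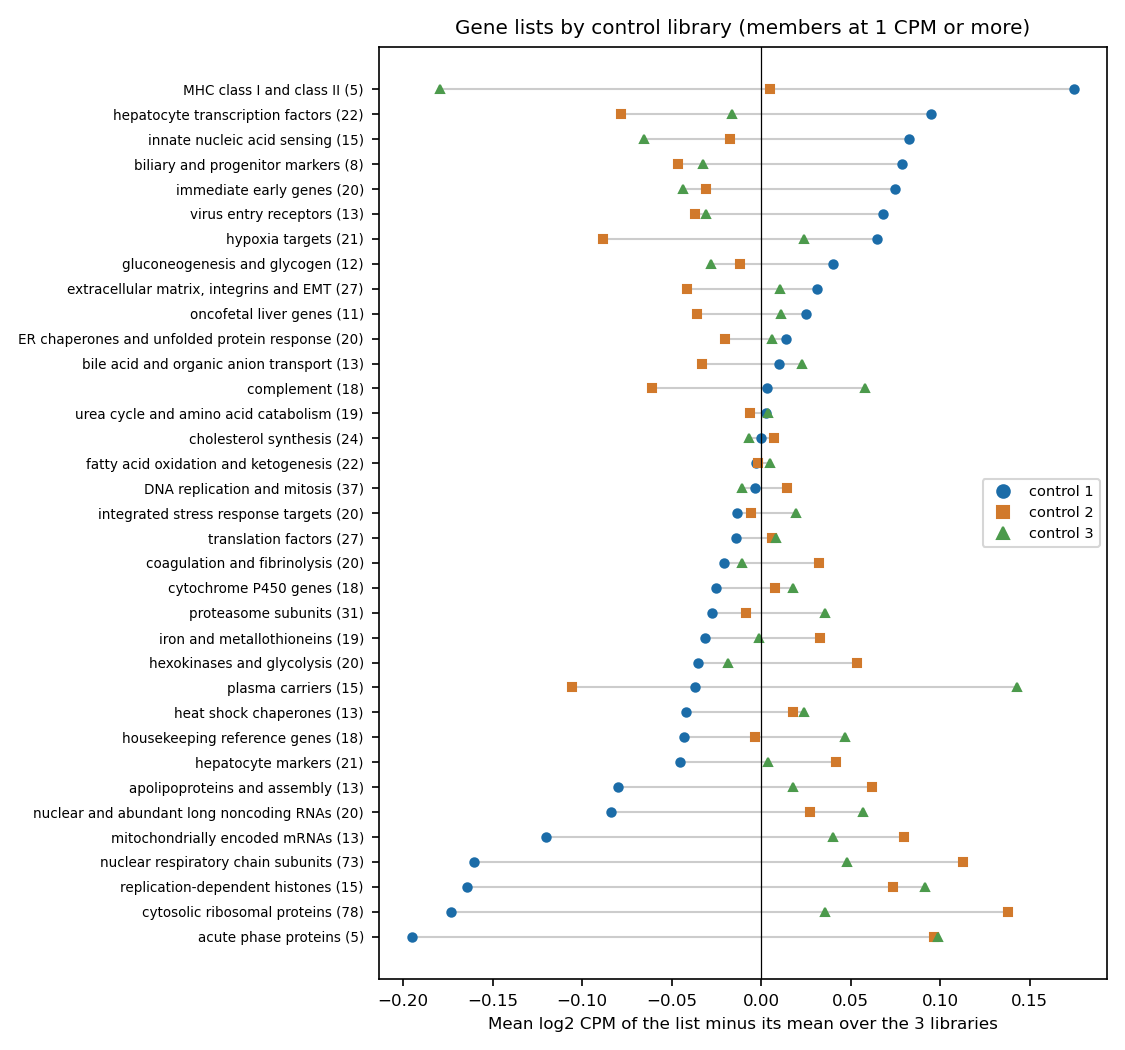
Mean log2 CPM of each gene list in each control library, minus the list's mean over the 3 libraries, for members with 1 CPM or more (1 symbol a library). Ribosomal protein and respiratory chain lists lie lowest in control 1 and highest in control 2, with ranges of 0.31 and 0.27. Ranges of that size also occur with 5 members a list: 0.354 for MHC genes, highest in control 1, and 0.294 for acute phase proteins, lowest in control 1.

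Several lists had a small range of their mean, while their members went both ways. The range of the mean log2 CPM was 0.0077 for fatty acid oxidation, 0.011 for urea cycle and amino acid genes, 0.014 for cholesterol synthesis, 0.021 for translation factors and 0.024 for DNA replication and mitosis. Among their members, 19 of 24 cholesterol, 20 of 27 translation and 23 of 37 replication genes differed beyond sampling noise. So did 12 of 23 of fatty acid oxidation and 4 of 20 of the urea cycle list. The share was 29.4% over all genes tested, but 4252 of 9386 among those with a mean of 10 CPM or more. The test calls a given fold more readily at higher counts, so these lists of abundant genes are nearer the second background. The SD of the log2 ratio of control 1 to 2 was 0.23 for fatty acid oxidation, 0.24 for translation factors and 0.21 for cholesterol synthesis, against 0.22 for all genes. Among genes often used to scale expression, the range of log2 CPM over the libraries was 0.043 for ACTB, 0.057 for YWHAZ, 0.062 for PGK1 and 0.083 for GUSB. It was 0.21 for GAPDH, 0.27 for PPIA and 0.30 for RPLP0, a ribosomal stalk protein. These ranges are of CPM, and by TPM the spread of ACTB and GAPDH was alike, with an SD of 127 on 4017 and of 101 on 2873.

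Ratios between libraries moved with base composition and length. Over 8981 genes with a GC value, the log2 ratio of control 1 to control 2 had a Spearman correlation across genes of -0.49 with GC content, that of control 2 to 3 had 0.67 and that of control 1 to 3 had 0.026. With genes split into 4 equal groups by GC content, the median log2 ratio of control 1 to 2 was 0.17 in the lowest and -0.091 in the highest. Exon length had correlations of 0.40 for control 1 to 2, 0.35 for 1 to 3 and -0.23 for 2 to 3 over 9367 genes. The shortest genes had a median log2 ratio of -0.11 for control 1 to 2, and of -0.093 without ribosomal protein and respiratory chain genes. With the trend on GC content removed, the ribosomal protein median was -0.30 and the respiratory chain median -0.28. With the trend on length removed, they were -0.26 and -0.17. These removals were added after the data were seen, and whether base composition or length comes from the libraries or from the cells cannot be told apart.

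**Figure D5:**
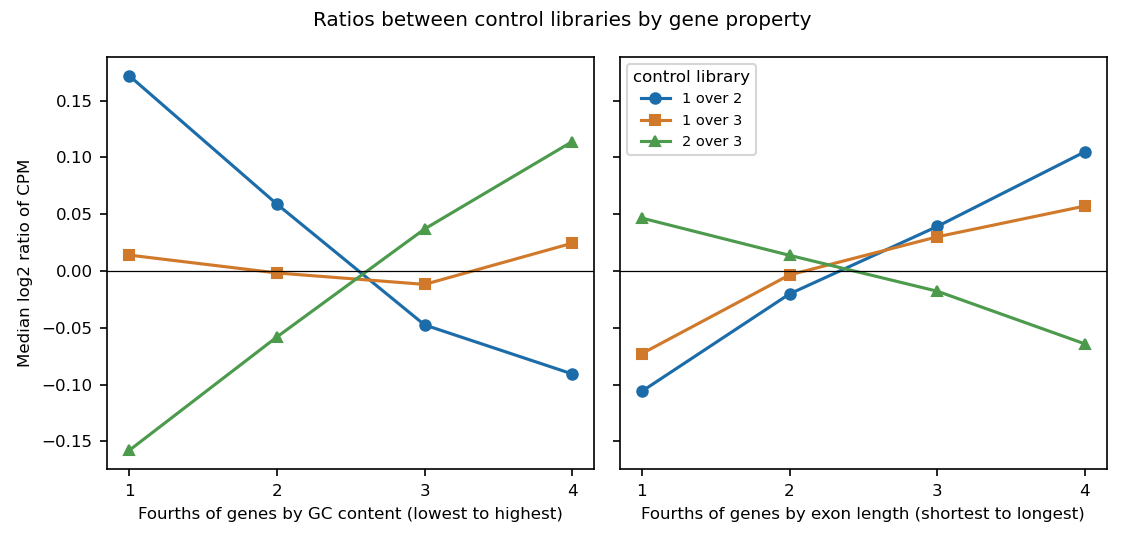
Median log2 ratio of CPM between pairs of control libraries in 4 equal groups of genes by GC content and by exon length, with a line for each pair. The pair of controls 1 and 2 falls from 0.17 in the lowest GC group to -0.091 in the highest, and the pair of controls 1 and 3 stays near 0 for GC content.

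The genes with the largest range over the libraries were mostly of low level or had copies. FMNL1, a formin, had 2.03, 22.4 and 10.5 CPM, a log2 range of 3.45, and RPL32P16 had 42.7, 11.7 and 4.72 CPM. PRPF8, the core spliceosome protein, had 36.3, 25.2 and 6.10 CPM, and INTS3, of the Integrator complex, had 4.95, 19.98 and 10.5 CPM, each with 1 alternate sequence. MIR497HG, a microRNA host transcript, had 24.4, 6.68 and 7.29 CPM. CLIC1, VARS1 and RPS9, with 6, 6 and 9 alternate sequences, had log2 ranges of 1.55, 1.17 and 1.47, and PLCXD2 had 1.21. Genes with alternate sequences passed 1.5-fold in some pair in 15 of 322 cases (4.66%), against 116 of 7951 (1.46%) of genes with neither alternates nor pseudogenes, and made up 6 of the 20 largest ranges.

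At the other end, AGMAT, agmatinase, had 142, 142 and 142 CPM, a log2 range of 0.0046, and CAPN2, a calpain, had 372, 373 and 372 CPM. The other genes of least range with 100 CPM or more were ADAM23, RRAGD, GOLM1, SETD5, APLP2, DLST, HADHB and ANXA2P2, up to a log2 range of 0.014. GOLM1, a Golgi protein raised in liver disease, and HADHB, of fatty acid oxidation, are among them. Such agreement in 3 libraries is the lower end of a distribution over all genes at that level and was not tested.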

How the data were processed

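RNA-seq of Huh7 cells was counted per gene by the authors; the deposited table holds raw counts of fragments over exons grouped by gene name, made with featureCounts 1.5.3 in paired mode on GENCODE 47, alternate sequences included, per the file headers. No strand option was set, so antisense and overlapping genes cannot be told apart by strand. Trim Galore, Subread and hg38 are named, per the submitters' processing notes. Exon lengths are those of the deposited table and sum over alternate sequences, which understates TPM of such genes. Totals were 16771835 to 20071846 counts; 3 columns of other samples were not used.

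From the counts, TPM, CPM with TMM factors, dispersion (edgeR 4.0.16, R 4.3.3) and chi-square tests (scipy 1.17.1) were computed, and checked on simulated data; DESeq2 1.42.0 size factors were an alternative. GC content was matched on gene name to GENCODE 29 transcripts. Named genes were the 20 highest, the 4 highest and the zero members of each of 39 lists (926 symbols), members whose place in the order is described, the 10 largest and smallest ranges, and the 5 highest LINC and -AS1 genes; others are said to be chosen after their values were seen. Members and lists were chosen with earlier results of these data known. Some genes that this rule names are not reported here.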

Additional observations from a re-analysis of the deposited data

How the results depend on the processing

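Of the counts of genes past 1.5-fold, those between controls 1 and 2 (132) became 852 with a minimum of 1 CPM, 39 with 50 CPM, 1305 at a looser fold threshold and 8 at 2-fold. Those between controls 1 and 3 (21) became 573, 0, 284 and 8, and those between controls 2 and 3 (44) became 601, 5, 558 and 9, in the same order. Without genes that share exon bases the counts were 55, 8 and 15 of 3760 genes (1.46%, 0.213% and 0.399%), shares near those over 9386 genes (1.41%, 0.224% and 0.469%). Over the 8981 genes with a GC value the counts were 122, 15 and 40, and with the GC trend removed 63, 15 and 18. These and the exon length alternatives were chosen after seeing the data. Genes beyond sampling noise (4745) ranged from 1971 to 4268 when 1 library was left out. They numbered 3445 at an adjusted p of 0.01. The mitochondrial share of 8.66% of counts was 27.5% of TPM. The expressed genes (14380) stayed within 1.5 times of that count, from 9685 at 5 TPM to 17677 when 1 library sufficed. The coefficient of variation (8.21%) was 6.10% to 10.6% when 1 library was left out. The range of the ribosomal protein list was 0.10 without control 1, against 0.31, and that of the respiratory chain list 0.065, against 0.27, so control 1 decides both. No paired analysis was possible because the control libraries alone were used and no groups were compared. Low values near the limit of 3 counts are bounded by depth.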

Other observations

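Long intergenic transcripts known in endoderm and liver cancer were among the more abundant noncoding RNAs of the control cells. LINC00261, a neighbour of FOXA2, had 74.8, 62.0 and 69.0 TPM (68.6 ± 6.38, SD, n = 3). By CPM, control 1 was only slightly above control 3, at 154.4, 139.4 and 151.6 in controls 1, 2 and 3. LINC01419 had 58.6 TPM, LINC02381 28.9, LINC01963 22.1 and LINC02404 18.9. Among transcripts named as antisense, FGD5-AS1 had 86.1, 60.5 and 78.7 TPM (75.1 ± 13.2, SD, n = 3), ADORA2A-AS1 22.1, TNFRSF10A-AS1 17.6, MAPKAPK5-AS1 16.9 and PSMA3-AS1 16.46. Since strand was not used in counting, their reads cannot be told apart from those of partner genes where they overlap.

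The share of protein-coding genes expressed differed by chromosome, from 40.9% on chromosome X and 45.6% on chromosome 21 to 63.1% on chromosome 3. The median level of those expressed ran from 12.5 TPM on chromosome 21 to 32.1 TPM on chromosome 20. The median log2 ratio of control 1 to control 2 was highest for genes of chromosomes 13 (0.15) and 18 (0.14) and lowest for those of chromosome 19 (-0.076). The part of GC content in that order was not tested.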
